A study of Homo sapiens with 4 samples.

Results

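Mitochondria make few of their own proteins and import the rest from the cytosol, and the genes described here encode that import machinery together with the chaperones, proteases and membrane-remodelling proteins that keep the organelle in working order. The 45 genes are the protein-coding genes in the tables whose symbol begins with TOMM or TIMM and a number, plus 21 named chaperone, protease, prohibitin, fusion, fission and mitophagy genes, out of 39261 genes in all. The rule reads gene names and no measured value. By role they comprise 10 genes grouped under the TOM complex, 7 of the TIM23 translocase, 7 of the TIM22 translocase and the small TIM chaperones, 4 matrix chaperones, 8 proteases, 2 prohibitins, 3 fusion genes, 3 fission genes and the kinase gene PINK1. The TOM group includes the paralogues TOMM20L and TOMM40L and the cytosolic helper TOMM34.

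Total RNA from 2 human breast cancer lines was sequenced in 4 libraries, 1 for each group. The triple-negative, mesenchymal-like line MDA-MB-231 was taken with TMEM126A knockdown and with a control vector. The line Ca1a (MCF10-Ca1a), a tumour-forming relative of the mammary epithelial line MCF10A, was taken with TMEM126A overexpression and with a control vector. All cultures received lentivirus and were at passage 10 to 15, and the lines grew in different media, Ca1a with horse serum, insulin, EGF, cholera toxin and hydrocortisone and MDA-MB-231 with fetal bovine serum. The labels do not say whether a culture was a clone or a pool. TMEM126A is a mitochondrial inner membrane protein, so the comparisons ask how the transcripts of the import and quality-control machinery compared when its own transcript was lowered or raised.

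Without replicates, none of the differences could be tested and p-values were not computed. The tables held 20673373 to 21405193 reads per library. Counts are those the authors deposited: in MDA-MB-231, reads scaled by a size factor per library, and in Ca1a, whole reads with no scaling. TMEM126A itself measured 559 counts in the MDA-MB-231 control and 22.9 in the knockdown, 24.5-fold (16.1 to 38.9) lower, and 265 in the Ca1a control and 9381 in the overexpression library, 35.4-fold (31.3 to 40.1) higher. Counts of a gene cannot separate construct from endogenous reads. In bulk RNA, a lower level in every cell and a lower share of cells with the transcript cannot be told apart. The epithelial genes EPCAM, CDH1, KRT17 and KRT5 were higher in the Ca1a control and the mesenchymal genes VIM and ZEB1 in the MDA-MB-231 control. CDH2, also listed as mesenchymal, was low in both, at 0.185 FPKM in the MDA-MB-231 control and 0.044 in the Ca1a control. Of 8 markers of blood, vessel, stromal and fat cells, 5 to 7 were under 1 FPKM in each library and ADIPOQ was listed at 0 in all 4. The summed level of the 8 was 101.8 and 101.2 FPKM in the MDA-MB-231 control and knockdown and 36.7 and 31.1 in the Ca1a control and overexpression libraries, nearly all of it from CD68 (98.6, 97.6, 34.9 and 28.9 FPKM), and without CD68 it was 1.82 to 3.66. Of these, PECAM1, a vessel marker, was 1.88-fold (1.45 to 2.45) higher in the knockdown and 1.66-fold (1.39 to 1.98) higher in the overexpression library. Of the epithelial and mesenchymal genes, KRT5 was 1.29-fold (1.26 to 1.31) higher and VIM 1.2-fold (1.16 to 1.25) lower in the overexpression library. The others did not go one way. There EPCAM had a ratio of 1.05 (1.01 to 1.09) and KRT17 of 0.972 (0.955 to 0.988). CDH1 at 1.01 (0.987 to 1.04), ZEB1 at 0.970 (0.577 to 1.63) and CDH2 at 1 (0.267 to 3.74) had intervals that held 1. The part of these markers in the results was not tested.

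Most mitochondrial proteins enter through the TOM complex of the outer membrane. TOMM20, TOMM22 and TOMM70 are its receptors, TOMM40 forms the channel, and TOMM5, TOMM6 and TOMM7 are small subunits. Proteins with a cleavable presequence pass on through the TIM23 translocase, pulled in by the matrix chaperone HSPA9, while carrier proteins are escorted by the small TIM chaperones to the TIM22 translocase. HSPD1 and HSPE1 form the folding chamber of the matrix, LONP1 and CLPP with CLPX degrade matrix proteins, and YME1L1, AFG3L2, SPG7 and OMA1 act at the inner membrane. MFN1, MFN2 and OPA1 fuse mitochondria, DNM1L with its receptors FIS1 and MFF divides them, and PINK1 marks damaged ones for removal.

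Many of these genes share short promoter elements, which are shown because the genes with the largest ratios below differ in whether they carry them. RefSeq promoter windows of the build GRCh38.p14, from 250 bases before to 50 bases after each start, were matched for 40 of the 45 genes and gave 47 windows. CLPP, PINK1, TIMM8B, TOMM5 and YME1L1 had no window. The motif CCGGAAG of ETS factors was found on either strand in 16 of the 47 windows (34.0%) and in 12.8% of all 22199 windows of protein-coding genes. The motif of NRF1, a regulator of nuclear genes for mitochondrial proteins, is GCGC, any base and TGCGC. It was found in 12 windows (25.5%), those of 11 genes, against 7.39% of all windows. Windows of a gene or of neighbouring genes can overlap, so a site can count more than once, as does the NRF1 match between HSPD1 and HSPE1. The motif AAGATGGC of YY1 was found in 3 windows (6.38%) against 3.53%. The heat shock element, searched as GAA, TTC and GAA with 2 bases of any kind between neighbours, was found in 1 window (2.13%), that of HSPD1, against 0.405%, and the cAMP response element TGACGTCA in 1 window (2.13%), that of TRAP1, against 2.26%. No motif contains another, and a match describes letters only.

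The stretches below come from the genes with the largest ratios, from TIMM23 and from the pair HSPE1 and HSPD1. They are read 5′ to 3′ on the strand of the gene, with 10 bases on each side of the match except for the heat shock element and TIMM21. Other genes with matches are not shown, among them TOMM34, which has ETS and NRF1 matches. Capitals mark the matched letters. TOMM6 is at chromosome 6 from 41787662 to 41789898 on the plus strand (GENCODE release 29, GRCh38) and has 2 ETS matches, which also lie in exons annotated to the overlapping gene AL365205.1. TIMM10B, at chromosome 11 from 6481447 to 6484679 on the plus strand, has 1 ETS match, and OMA1, at chromosome 1 from 58415384 to 58546802 on the minus strand, has 1 NRF1 match.
TOMM6, chr6:41787552-41787578, plus strand: ggccgtccctCTTCCGGatgtcggact
TOMM6, chr6:41787604-41787630, plus strand: ccggtagcagCCGGAAGtgccagaccg
TIMM10B, chr11:6481446-6481472, plus strand: cgagaggttaCTTCCGGggcggcaccg
OMA1, chr1:58546735-58546764, minus strand: gtgcgggtgcGCGCCTGCGCataggtcggg
TIMM21, at chromosome 18 from 74148511 to 74160530 on the plus strand, has none of the 5 motifs in its window, and the stretch shown ends at the base before its annotated start.
TIMM21, chr18:74148373-74148510, plus strand: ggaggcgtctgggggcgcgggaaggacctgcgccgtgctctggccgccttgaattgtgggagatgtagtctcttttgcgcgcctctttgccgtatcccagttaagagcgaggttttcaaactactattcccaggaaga

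HSPD1 and HSPE1 lie head to head on chromosome 2 and are read in opposite directions from starts that RefSeq places 105 bases apart at the nearest. The NRF1 match lies between those starts, and the heat shock element lies 250 to 223 bases before another HSPD1 start. TIMM23 and its near-identical copy TIMM23B differ in their ETS matches: TIMM23B has 2 matches side by side at the place where TIMM23 has 1, while TIMM23 has a further match at its start, not shown. GENCODE places the matches of HSPE1, TIMM10B and OMA1 in exons of those genes, and the matches shown for TIMM23 and TIMM23B in no exon. Of the 27 bases shown for TIMM23, 9 lie in an exon, all past the match. Aligned at the match that TIMM23 and TIMM23B share, the stretches of 27 bases are identical at 25 positions.
HSPE1 and HSPD1, chr2:197500322-197500351, plus strand: tggggcgagcGCGCCTGCGCgctgggtgat
HSPD1, chr2:197500063-197500090, minus strand: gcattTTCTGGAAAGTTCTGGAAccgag
TIMM23, chr10:45972431-45972457, plus strand: gcgcttccagCTTCCGGggcgcacatt
TIMM23B, chr10:49942001-49942027, plus strand: gcgCTTCCGGCTTCCGGggcgcacact

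Levels are given in FPKM, which are per length, where genes are set side by side. In all 4 libraries 43 of the 45 genes were over 1 FPKM. TIMM22, the channel of the carrier pathway, is listed at 0 in every library, and whether this reflects expression, the counting or the naming of the gene cannot be told apart. TOMM20L, a paralogue of TOMM20, had 1 read in the MDA-MB-231 control and none elsewhere, where a count of 0 allows up to 3 reads. The highest levels belonged to the matrix chaperone HSPD1, at 149 FPKM in the MDA-MB-231 control, 148 in the knockdown, 280.3 in the Ca1a control and 295 in the overexpression library, followed in the Ca1a control by HSPA9 at 240.3 FPKM and in the MDA-MB-231 control by TOMM7 at 134 FPKM. The lowest of the 43 in the MDA-MB-231 control was TIMM23B at 3.62 FPKM, and in the Ca1a control TIMM8A, a small TIM chaperone, at 3.97 FPKM. Together the genes took 0.533% of reads in the MDA-MB-231 control, 0.520% in the knockdown, 0.646% in the Ca1a control and 0.664% in the overexpression library. The 4 matrix chaperones alone took 0.128%, 0.121%, 0.243% and 0.250%. Between the controls they differed by slightly more than all 45 genes together. The remaining genes together thus took a slightly smaller share in the Ca1a control than in the MDA-MB-231 control.

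**Figure D1:**
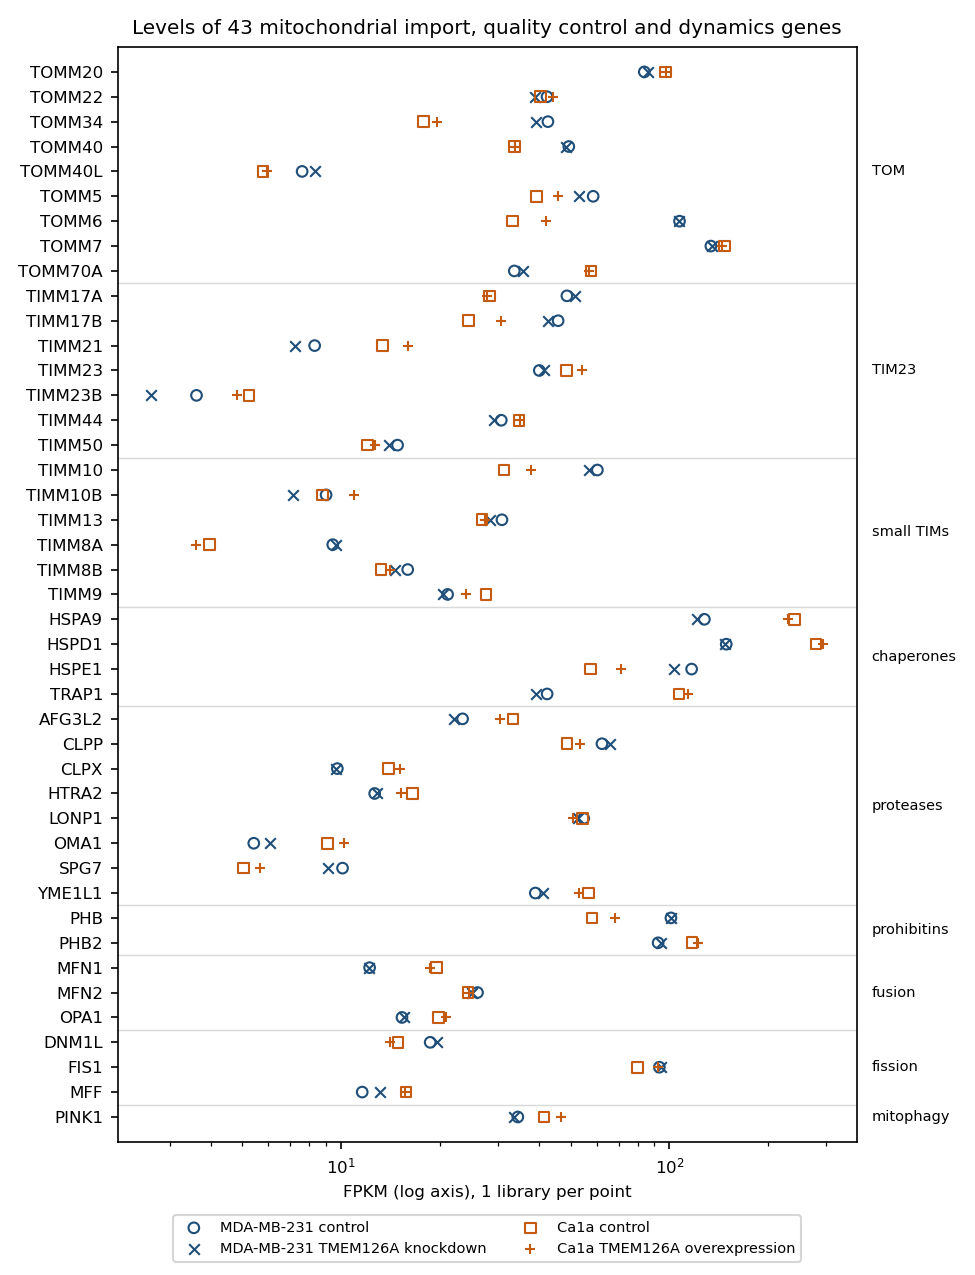
Level of each gene (vertical axis, grouped by role) in FPKM on a log axis, 1 point per library. Blue marks stand for MDA-MB-231 and orange marks for Ca1a. Treated and control libraries of a line lie close together for nearly all genes, while the lines stand apart for genes such as TOMM6, at 107.4 FPKM in the MDA-MB-231 control and 33.3 in the Ca1a control.

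Ratios of a treated library to its control are ratios of these counts, so those of Ca1a are ratios of unscaled reads. Each ratio is given with an exact binomial interval at 95% that covers counting error only. A gene was counted as higher or lower by size where its ratio was at least 1.2-fold, its mean was at least 20 counts and the interval left out 1. A second count took every gene whose interval lay wholly above or below 1, whatever the size. Counts of 4 libraries are listed in the order MDA-MB-231 control, knockdown, Ca1a control, overexpression.

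In the knockdown, 2 of 43 genes were lower by size, TIMM23B and TIMM10B (4.65%, against 3.39% of all 13292 genes tested), and none was higher (against 5.33% of all genes). The interval lay below 1 for 7 genes (16.3%, against 11.3% of all genes) and above 1 for 4 (9.30%, against 16.8%), and it held 1 for 32. With libraries scaled by total reads the split became 2 above and 12 below 1. All genes moved too, to 11.9% above and 16.7% below. The median log2 ratio was -0.01, beside 0.01 over all genes. In the overexpression library, 4 of 43 genes were higher by size, TOMM6, TIMM21, TIMM10B and OMA1 (9.30%, against 5.76% of all 12111 genes tested), and none was lower (against 5.94% of all genes). The interval lay above 1 for 19 genes (44.2%, against 18.1% of all genes), below 1 for 3 (6.98%, against 16.2%) and around 1 for 21. With each of the other 3 scalings 17 lay above and 4 below 1, against 16.4% to 17.4% and 16.8% to 17.9% of all genes. The median log2 ratio was 0.04, beside 0.01 over all genes. The genes are more abundant than most, with a median of 1510 counts in Ca1a against 700.0 over all genes tested, and 1843 against 727 in MDA-MB-231, and intervals narrow as counts grow.

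**Figure D2:**
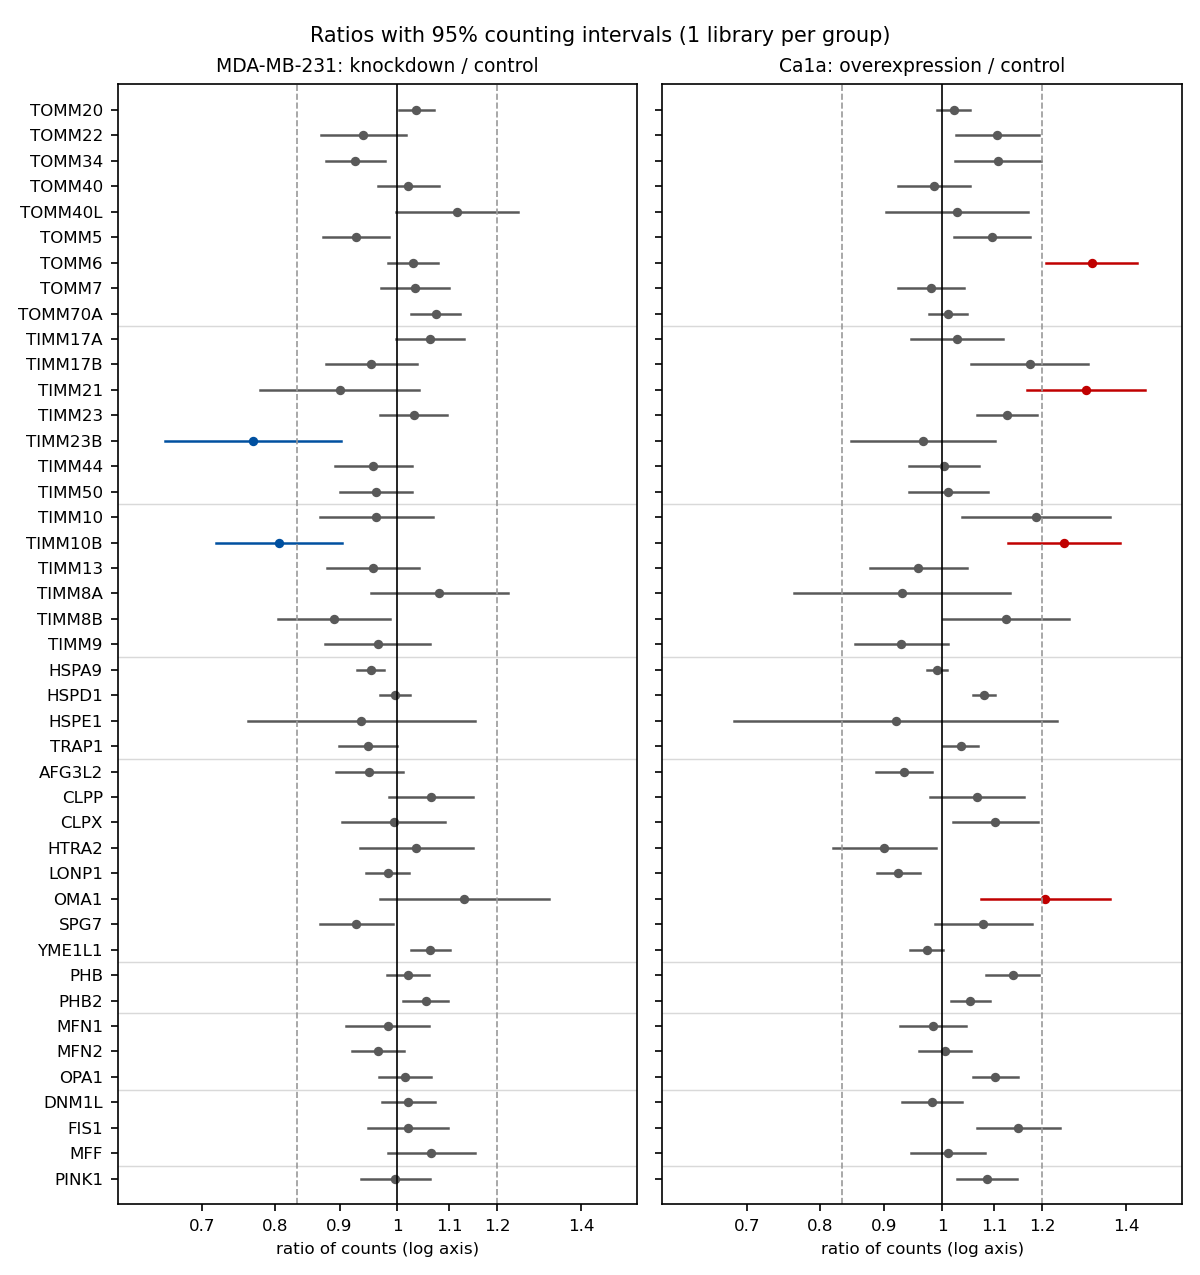
Ratio of counts, treated over control, for 43 genes in MDA-MB-231 (left) and Ca1a (right) on a log axis, with bars for the 95% counting interval. Dashed lines mark 1.2-fold, red marks the 4 genes higher by size and blue the 2 lower by size. In the right panel 19 bars lie wholly above 1 and 3 wholly below, and in the left panel 4 lie above and 7 below.

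Among the receptors and channel of the TOM complex, ratios stayed near 1. TOMM20, a presequence receptor, measured 7141, 7396, 8205 and 8379 counts, with a ratio of 1.04 (1.002 to 1.07) in the knockdown and 1.02 (0.990 to 1.05) in the overexpression library. TOMM40, the channel, measured 2507, 2558, 1817 and 1789, with ratios of 1.02 (0.965 to 1.08) and 0.985 (0.922 to 1.05). TOMM70, listed as TOMM70A, the receptor for carrier proteins, had ratios of 1.07 (1.03 to 1.12) and 1.01 (0.976 to 1.05). In the knockdown the interval of TOMM70 lay above 1, and that of TOMM20 did so only with the deposited scaling, not with scaling by total reads, by the median ratio or by the trimmed mean of M values (TMM). Both intervals held 1 in the overexpression library. TOMM22, the receptor that organises the complex, had ratios of 0.940 (0.870 to 1.02) and 1.11 (1.02 to 1.19). TOMM40L, a paralogue of the channel, had ratios of 1.12 (0.998 to 1.25) and 1.03 (0.903 to 1.17).

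The largest ratio of the family came from a small subunit. TOMM6, which helps assemble the complex, measured 3568, 3673, 1009 and 1326 counts. Within Ca1a the overexpression library was 1.31-fold (1.21 to 1.43) higher than its control, with an interval wholly past 1.2-fold. In the knockdown the ratio was 1.03 (0.983 to 1.08). Of the other small subunits, TOMM5 had ratios of 0.928 (0.873 to 0.986) in the knockdown and 1.1 (1.02 to 1.17) in the overexpression library, and TOMM7 had 1.03 (0.972 to 1.1) and 0.980 (0.923 to 1.04). TOMM34, a cytosolic helper of import, had 0.926 (0.877 to 0.978) and 1.11 (1.02 to 1.2). The 9 genes of the TOM group with a ratio include TOMM34 and TOMM40L. Over these 9 the knockdown interval lay above 1 for 2 (22.2%) and below 1 for 2 (22.2%), against 16.8% and 11.3% of all genes. The overexpression interval lay above 1 for 4 (44.4%) and below 1 for none, against 18.1% and 16.2% of all genes.

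In the TIM23 translocase the core channel was slightly higher with TMEM126A overexpression. TIMM23, the channel, measured 2078, 2142, 2477 and 2790.0 counts, with a ratio of 1.03 (0.970 to 1.1) in the knockdown and 1.13 (1.07 to 1.19) in the overexpression library. TIMM23B measured 358, 275, 469 and 453, and was 1.3-fold (1.11 to 1.53) lower in the knockdown while its overexpression ratio was 0.966 (0.847 to 1.1). Counting may assign reads of near-identical genes to either or to neither, so the values of both are uncertain. TIMM17A and TIMM17B are alternative partners of the channel. TIMM17A measured 1929, 2048, 1098 and 1129, with ratios of 1.06 (0.997 to 1.13) and 1.03 (0.945 to 1.12), and TIMM17B had 0.954 (0.878 to 1.04) and 1.17 (1.05 to 1.31). The overexpression interval of TIMM17B lay above 1 and that of TIMM17A held 1. The difference between the paralogues was not tested.

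TIMM21, which links the translocase to the TOM complex and to respiratory chain assembly, measured 399, 359.8, 603 and 784 counts. It was 1.3-fold (1.17 to 1.45) higher in the overexpression library, and its knockdown ratio was 0.901 (0.779 to 1.04). In FPKM the overexpression ratio was 1.19, just under the 1.2-fold limit. TIMM50, the receptor that guards the channel, measured 1879, 1807, 1501 and 1518, with ratios of 0.962 (0.901 to 1.03) and 1.01 (0.941 to 1.09). TIMM44, the anchor of the import motor, measured 1614, 1545, 1906 and 1914, with ratios of 0.958 (0.892 to 1.03) and 1.004 (0.942 to 1.07). For both of these the intervals held 1 in both comparisons.

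Of the small TIM chaperones, TIMM10B, a subunit that docks the chaperones at the TIM22 translocase, passed the limit of size in both comparisons, in opposite directions. It measured 669, 539.7, 676 and 844 counts, so it was 1.24-fold (1.11 to 1.39) lower in the knockdown and 1.25-fold (1.13 to 1.38) higher in the overexpression library. In FPKM it measured 8.99, 7.15, 8.75 and 10.9, so the controls stood close to each other, the knockdown below both and the overexpression library above both. TIMM9 and TIMM10, which build the main chaperone ring, stayed within 1.2-fold in both comparisons: TIMM9 measured 863, 833, 1117 and 1037, with ratios of 0.965 (0.876 to 1.06) and 0.928 (0.852 to 1.01), and TIMM10 measured 749, 721, 401 and 476, with ratios of 0.962 (0.868 to 1.07) and 1.19 (1.04 to 1.36). TIMM8A and TIMM13 form the alternative ring. TIMM8A measured 488, 527, 215 and 200, with ratios of 1.08 (0.952 to 1.22) and 0.930 (0.763 to 1.13), and TIMM13 had 0.957 (0.879 to 1.04) and 0.958 (0.876 to 1.05). TIMM8B, a paralogue of TIMM8A, had 0.891 (0.804 to 0.988) and 1.12 (1.001 to 1.26), with intervals just clear of 1 on opposite sides. The overexpression interval of TIMM8B held 1 with each of the other 3 scalings. For TIMM10 the overexpression ratio in FPKM was 1.21.

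HSPD1 and HSPA9 had the highest counts of the 43 genes and the narrowest intervals. HSPD1, the Hsp60 chaperonin, measured 10191, 10150.1, 18854 and 20365 counts, with a ratio of 0.996 (0.969 to 1.02) in the knockdown and 1.08 (1.06 to 1.1) in the overexpression library. HSPA9, mortalin, the Hsp70 of the matrix, measured 13462, 12827, 25314 and 25077, with ratios of 0.953 (0.930 to 0.976) and 0.991 (0.973 to 1.01). TRAP1, the mitochondrial Hsp90, measured 2810.3, 2664, 7513 and 7774, with ratios of 0.948 (0.899 to 1.0001) and 1.03 (1.002 to 1.07). Every knockdown ratio of the 4 chaperones was below 1, though the interval of HSPA9 alone left out 1. With each of the other 3 scalings the knockdown interval of TRAP1 also lay below 1, and its overexpression interval held 1. HSPE1, the lid of the Hsp60 chamber, measured 195, 183, 99 and 91, with ratios of 0.937 (0.762 to 1.15) and 0.919 (0.684 to 1.23). In FPKM its overexpression ratio was 1.24, on the other side of 1.

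Among the proteases of the matrix and intermembrane space, LONP1, the main matrix protease, measured 4963, 4876, 5230.0 and 4826 counts, with ratios of 0.983 (0.944 to 1.02) and 0.923 (0.887 to 0.960). CLPP, the proteolytic core of the other matrix protease, measured 1302, 1385, 1041 and 1109, with 1.06 (0.986 to 1.15) and 1.07 (0.978 to 1.16). CLPX, its unfoldase, measured 891, 886, 1260.0 and 1389, with 0.993 (0.904 to 1.09) and 1.1 (1.02 to 1.19). HTRA2, of the intermembrane space, measured 724, 750.4, 950.0 and 855, with 1.04 (0.934 to 1.15) and 0.90 (0.820 to 0.988). LONP1 and HTRA2 were 2 of the 3 genes whose overexpression interval lay below 1, and AFG3L2 was the other.

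The proteases of the inner membrane did not go one way either. YME1L1, which faces the intermembrane space, measured 5988, 6362, 8674 and 8437 counts, with ratios of 1.06 (1.03 to 1.1) and 0.973 (0.944 to 1.002). AFG3L2 and SPG7 together form a protease facing the matrix. AFG3L2 measured 2112, 2008, 3050.0 and 2846, with 0.951 (0.894 to 1.01) and 0.933 (0.886 to 0.982), and SPG7 measured 1817, 1687, 961 and 1036, with 0.928 (0.868 to 0.992) and 1.08 (0.986 to 1.18). OMA1, a stress-activated protease that cuts OPA1, measured 313, 354, 515 and 622. It was 1.21-fold (1.07 to 1.36) higher in the overexpression library, with a knockdown ratio of 1.13 (0.968 to 1.32). Its FPKM ratio in the overexpression library was 1.13, and it was under the 1.2-fold limit with TMM scaling. Over the 8 proteases, the intervals lay above 1 for 2 (25%, against 18.1% of all genes) and below 1 for 3 (37.5%, against 16.2%) in the overexpression library. With each of the other 3 scalings that of YME1L1 also lay below 1.

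The prohibitins PHB and PHB2 form a ring scaffold in the inner membrane, and both had overexpression intervals above 1. PHB measured 5176, 5278, 3080.0 and 3503 counts, with ratios of 1.02 (0.981 to 1.06) and 1.14 (1.08 to 1.19). PHB2 measured 4607, 4853, 6066 and 6386, with ratios of 1.05 (1.01 to 1.1) and 1.05 (1.02 to 1.09), and was the 1 gene of the 43 whose interval lay above 1 in both comparisons. With scaling by total reads its knockdown interval held 1.

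Of the fusion genes, OPA1, the inner membrane fusion GTPase, measured 3489, 3541, 4345 and 4788 counts, with a ratio of 1.01 (0.968 to 1.06) in the knockdown and 1.1 (1.06 to 1.15) in the overexpression library. The mitofusins of the outer membrane stayed around 1. MFN1 measured 1368, 1345, 2159 and 2123, with ratios of 0.983 (0.911 to 1.06) and 0.983 (0.926 to 1.04), and MFN2 measured 3564, 3443, 3433 and 3454, with ratios of 0.966 (0.922 to 1.01) and 1.01 (0.959 to 1.06). On the fission side, FIS1, an outer membrane adaptor, measured 1462, 1491, 1302 and 1497, with ratios of 1.02 (0.948 to 1.1) and 1.15 (1.07 to 1.24). DNM1L, the fission GTPase, measured 3256, 3323, 2590.0 and 2544, with 1.02 (0.972 to 1.07) and 0.982 (0.930 to 1.04), and its receptor MFF measured 1209, 1287, 1677 and 1695, with 1.06 (0.983 to 1.15) and 1.01 (0.944 to 1.08). 1 fusion gene and 1 fission gene thus had an overexpression interval above 1, and none of the 6 left 1 in the knockdown. PINK1, the kinase that accumulates on damaged mitochondria, measured 1954, 1948, 2452 and 2661, with ratios of 0.997 (0.936 to 1.06) and 1.09 (1.03 to 1.15).

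The knockdown and overexpression comparisons share no control library, so their ratios do not rest on a common value. They differ in line and medium as well as in the direction of TMEM126A, and these cannot be told apart. Of the 43 genes, 16 were below 1 in the knockdown and above 1 in the overexpression library, 6 the reverse, 13 above 1 in both and 8 below 1 in both. Counting only intervals that left out 1, 4 genes were lower in the knockdown and higher in the overexpression library: TIMM10B, TIMM8B, TOMM34 and TOMM5. They are 9.30% of the 43, against 2.14% of the 11349 genes tested in both. The 43 are more abundant than most genes, so at a given ratio more of their intervals leave out 1. None of the 43 had the reverse pattern, which 3.37% of all genes had. With scaling by the median ratio or TMM the first set was TIMM10B, TOMM34 and TOMM5, and with total reads TOMM22 took the place of TIMM8B. With each of these 3 scalings YME1L1 had the reverse pattern, higher in the knockdown and lower in the overexpression library. Of all genes, 2.26%, 2.20% and 3.08% had the first pattern with the median ratio, TMM and total reads. The reverse pattern held for 3.32%, 3.39% and 2.56%. TIMM10B and TIMM8B are small TIM chaperones, TOMM5 a TOM subunit and TOMM34 a cytosolic helper. Apart from TIMM10B, their ratios lay within 1.2-fold in both comparisons.

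The 2 control libraries differ in line and in medium, and these cannot be told apart. At least 2-fold in FPKM, with at least 1 FPKM in a control, 5 genes were higher in MDA-MB-231 (against 27.5% of the 12101 genes compared) and 1 in Ca1a (against 14.0%). The 5 and the 1 are smaller shares of the 43 genes than these shares of all genes. Of any size, 22 genes were higher in MDA-MB-231 and 21 in Ca1a, and the median log2 ratio was 0.01, beside 0.29 over all genes. TOMM6 had the largest ratio at 3.23-fold, from 33.3 FPKM in the Ca1a control to 107 in the MDA-MB-231 control, with 107 in the knockdown and 42.1 in the overexpression library. TOMM34 was 2.40-fold higher in MDA-MB-231, at 42.7 FPKM in the MDA-MB-231 control, 39.2 in the knockdown, 17.8 in the Ca1a control and 19.6 in the overexpression library. TIMM8A was 2.37-fold higher, at 9.42 FPKM in the MDA-MB-231 control, 9.64 in the knockdown, 3.97 in the Ca1a control and 3.61 in the overexpression library. SPG7 was 2.01-fold higher, at 10.1 FPKM in the MDA-MB-231 control, 9.12 in the knockdown, 5.03 in the Ca1a control and 5.67 in the overexpression library, and it was under 2-fold when reads as a share of the library replaced FPKM. For each of these the treated library of a line stayed on the same side as its control. The genes were chosen for the gap between the controls, so this was largely fixed in advance.

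The matrix chaperones split between the lines. TRAP1 was 2.53-fold higher in Ca1a, at 42.4 FPKM in the MDA-MB-231 control, 39.2 in the knockdown, 107 in the Ca1a control and 114 in the overexpression library. HSPD1 and HSPA9 were just short of 2-fold, at 1.88-fold and 1.88-fold higher in Ca1a. HSPE1, the partner of HSPD1, went the other way and was 2.03-fold higher in MDA-MB-231, at 117 FPKM in the MDA-MB-231 control, 103 in the knockdown, 57.5 in the Ca1a control and 71.4 in the overexpression library. Its level thus ran opposite to HSPD1, with which it shares its promoter stretch. Just under the limit on the MDA-MB-231 side was TIMM10 at 1.93-fold.

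**Figure D3:**
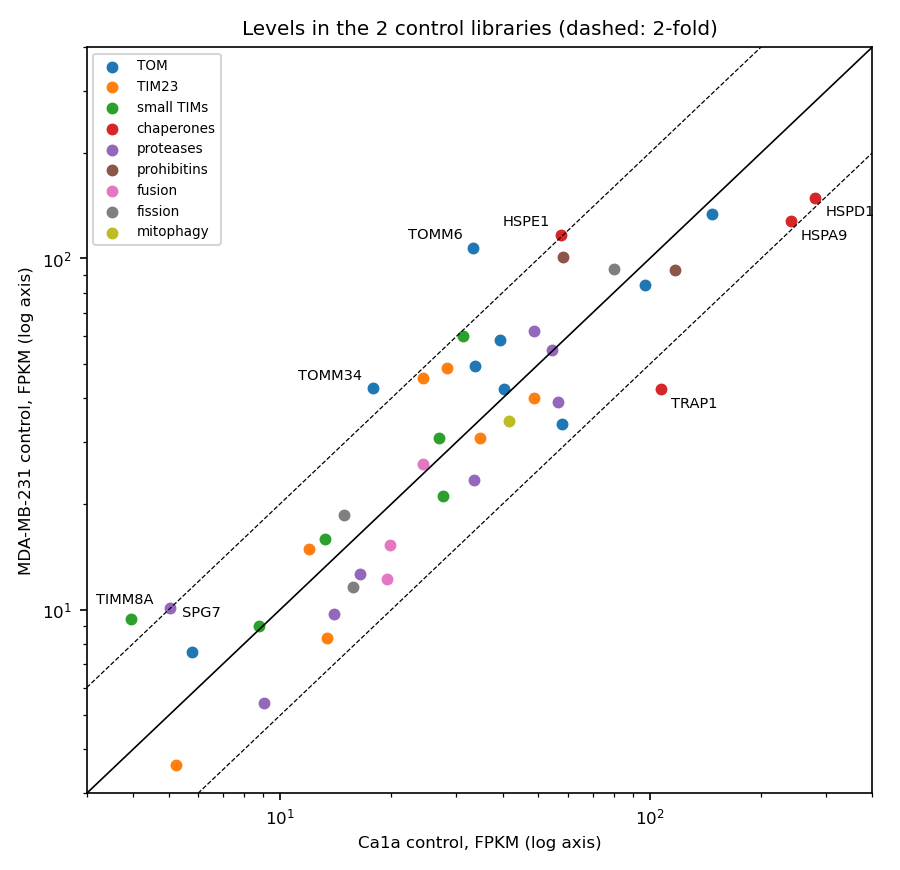
Level of each gene in the MDA-MB-231 control (vertical) against the Ca1a control (horizontal), in FPKM on log axes, coloured by role. Solid and dashed lines mark equality and 2-fold. TOMM6, TOMM34, TIMM8A, HSPE1 and SPG7 lie on the MDA-MB-231 side beyond 2-fold and TRAP1 on the Ca1a side, with HSPD1 and HSPA9 just inside.

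The value of HSPE1 depends on which deposited unit is read. Its 195 counts in the MDA-MB-231 control are few for 117 FPKM. Dividing the share of a library's reads by FPKM gives an effective length for each gene, which for HSPE1 came to 80.3 bases, a share of 0.08 of its longest coding transcript of 950 bases. The other genes had a share of 0.71 to 4.13 in that library, with a median of 1.29. HSPE1 overlaps the readthrough gene HSPE1-MOB4 on the same strand, which held no reads in any library but 17.5, 16.9, 8.84 and 9.15 FPKM. The part of the overlap in the low count was not tested. The FPKM ratio lay on the other side of 1 from the count ratio for 2 genes in the knockdown and 6 in the overexpression library, each with a count interval that held 1.

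**Figure D4:**
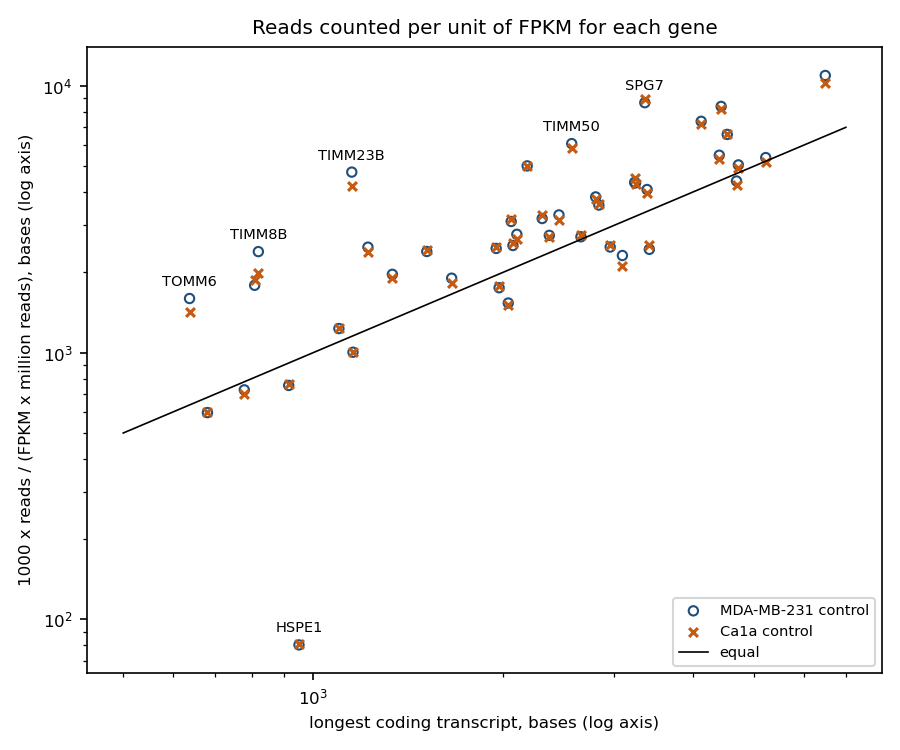
Share of a library's reads divided by FPKM, scaled to bases, against the longest coding transcript of each gene in bases, on log axes, for the 2 control libraries. The line marks equality. HSPE1 lies far below the line at about 80 bases, while the other 42 genes follow it within a few fold.

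Other genes share sequence or position with a neighbour, and the sources used here do not give the strand setting of the counting. In GENCODE release 29, 6 of the 45 genes overlap a protein-coding gene on the same strand (HSPE1, OMA1, TIMM10B, TIMM13, TOMM5 and TOMM6) and 20 overlap one on the opposite strand. Of the 5 genes that met the limit of size, OMA1, TIMM10B and TOMM6 are thus in the first set, and TIMM10B, TIMM23B and TOMM6 are in the second. HSPD1 has 11 pseudogene copies in the tables, of which 6 held reads, and these added up to 13.1% to 14.6% of the HSPD1 count in each library. Most of that was HSPD1P1, at 1099.8, 1158, 2219 and 2649 counts. TOMM20P4 added 3.41% to 4.18% of the TOMM20 count.

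Further genes of the same pathways were read from lists of genes outside the 45. Of the import motor and carrier pathway partners, 8 of 9 had a ratio. The shares of all genes above and below 1 were 16.8% and 11.3% in the knockdown and 18.1% and 16.2% in the overexpression library, and the counts of this and the following lists are read beside them. The list had 1 interval above (12.5%) and 1 below 1 (12.5%) in the knockdown, and 3 above (37.5%) and none below in the overexpression library. In the knockdown HSCB, an iron-sulphur co-chaperone, was higher at 1.31 (1.05 to 1.64) and GRPEL2, a nucleotide exchange factor of HSPA9, lower at 0.887 (0.806 to 0.976). In the overexpression library AGK, a TIM22 subunit, was higher at 1.26 (1.04 to 1.52), as was DNAJC15, a motor co-chaperone, at 1.23 (1.14 to 1.32). PAM16, a motor subunit, is listed at 0 in every library. Of the 7 presequence peptidases, none was above 1 and 2 (28.6%) below 1 beyond counting error in the knockdown, PMPCA at 0.897 (0.832 to 0.966) and PITRM1 at 0.948 (0.906 to 0.992). In the overexpression library 3 were above 1 (42.9%) and none below, led by PMPCB, the catalytic subunit of the processing peptidase, at 1.14 (1.06 to 1.22).

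The outer membrane assembly and cristae-organising (MICOS) list had 12 genes, all with intervals holding 1 in the knockdown. In the overexpression library 4 lay above 1 (33.3%, against 18.1% of all genes) and none below (against 16.2%), led by MTX1, a metaxin, at 1.26 (1.04 to 1.53) and CHCHD3, a MICOS subunit, at 1.21 (1.13 to 1.29). Of the 4 genes for intermembrane space import and membrane insertion, 2 intervals (50%) lay above 1 and none below in each comparison. CHCHD4, the oxidoreductase that traps small TIM proteins, was above 1 in both comparisons, at 1.22 (1.1 to 1.35) and 1.13 (1.03 to 1.24), and so was the insertase OXA1L, at 1.1 (1.04 to 1.16) and 1.08 (1.02 to 1.14). Of the dynamics and mitophagy partners, 2 intervals of 15 lay above 1 (13.3%) and 3 below (20.0%) in the knockdown, and 1 of 16 above (6.25%) and 2 below (12.5%) in the overexpression library. USP30, a deubiquitinase that opposes mitophagy, was higher in the knockdown at 1.27 (1.05 to 1.53). BNIP3L, a mitophagy receptor, was lower in the knockdown at 0.866 (0.819 to 0.914) and higher in the overexpression library at 1.17 (1.07 to 1.28), on the same sides as TIMM10B.

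Cytosolic chaperones deliver precursors to TOMM70 and fold proteins outside the organelle. Of 16 with a ratio, 11 intervals lay above 1 (68.8%, against 18.1% of all genes) and 2 below (12.5%, against 16.2%) in the overexpression library, and 5 above (31.3%, against 16.8%) and 2 below (12.5%, against 11.3%) in the knockdown. Their median count was 8074 in Ca1a, against 700.0 over all genes tested, and 6156 in MDA-MB-231, against 727, so their intervals are narrow. HSP90AA1, the inducible Hsp90, was the largest at 1.34 (1.31 to 1.36) in the overexpression library and 0.940 (0.927 to 0.954) in the knockdown. HSPA8, the constitutive Hsp70, was above 1 in both, at 1.15 (1.13 to 1.16) and 1.11 (1.1 to 1.13). HSPB1, a small heat shock protein, and DNAJB1, an Hsp40, were higher in the knockdown, at 1.13 (1.07 to 1.19) and 1.1 (1.05 to 1.15), and lower in the overexpression library, at 0.941 (0.90 to 0.984) and 0.935 (0.899 to 0.972). HSPA1A and HSPA1B, near-identical inducible Hsp70 genes, are listed at 0 in every library, which, as for TIMM22 and PAM16, need not reflect expression. Beside HSP90AA1, the matrix chaperone of its family, TRAP1, had an overexpression ratio of 1.03 (1.002 to 1.07), and HSPA9 beside HSPA8 had 0.991 (0.973 to 1.01).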

How the data were processed

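RNA-seq of 4 libraries, 1 per group, was analysed from gene tables. The submitters' processing notes name the builds hg38 and GRCh38.p5 and the tools DESeq, HTSeq, Cufflinks and HISAT2. Tool versions, roles and strandedness were not given in the sources used here. Ca1a values that the authors deposited are whole read counts per gene. For MDA-MB-231 the deposited signal was taken as read counts divided by the library's size factor, judged from the values and not from a label. The smallest value above 0 was 1.006 in the control and 0.994 in the knockdown. Every MDA-MB-231 value was a whole multiple of the smallest above 0 (100% of values, tolerance 1e-06), which served as read numbers. The authors also deposited FPKM of all 4 libraries. The authors' log2 fold changes, ratios and p-values were not used.

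Ratios are of the MDA-MB-231 signal and of the unscaled Ca1a counts. Each interval is an exact conditional one at 95% (binomial, Clopper-Pearson), which covers counting error only, since reads without molecular identifiers are not independent molecules. Medians are on log2(value + 1), with a mean of at least 20. With 1 library per group no test was possible. Full values are given for genes meeting the 1.2-fold limit, those at least 2-fold different between controls, the core genes of each role, and up to 4 genes of each further list. HSPE1-MOB4, HSPD1P1, TOMM20P4 and the other genes named outside this rule were chosen after their values were seen. The members and lists were chosen with earlier results of these data known. Data of 39261 genes were simulated with counting (Poisson) error alone. The 200 changed genes were drawn from those with a mean of at least 100 counts. Changes of 1.3-fold and 1.5-fold were recovered for 86% and 100% of these genes in the knockdown comparison. In the overexpression comparison they were recovered for 91% and 100%. Of unchanged genes, 165 and 157 were also called. Intervals covered the true ratio for 95.5% and 95.6% of genes, which counts drawn in this way fix in advance. Variation between cultures or libraries was not simulated. The alternatives were other scalings, filters, pseudocounts, folds, confidence levels and FPKM. TMM factors came from edgeR 4.0.16 in R 4.3.3. The rest ran in python 3.11.15 (scipy 1.17.1, pandas 2.3.3, numpy 2.4.6, matplotlib 3.10.9).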

Additional observations from a re-analysis of the deposited data

How the results depend on the processing

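No ratio whose interval left out 1 changed direction under the alternatives run, and neither median did. The median log2 ratio ranged from -0.04 to -0.01 in the knockdown and from 0.03 to 0.07 in the overexpression library, including the alternative without HSPE1, TIMM23 and TIMM23B, which was chosen after seeing the data. The count of genes lower by size in the knockdown was 0 at 1.5-fold. The knockdown intervals above and below 1 numbered 2 and 12 with scaling by total reads, against 11.9% and 16.7% of all genes. They numbered 2 and 4 at a confidence level of 99%. In the overexpression library 14 genes were higher and 1 was lower at 1.1-fold, and 0 were higher at 1.5-fold. Shares of all genes were not computed at 99%, 1.1-fold or 1.5-fold. With any of the 3 scalings 17 overexpression intervals lay above 1, without TIMM8B and TRAP1, and 4 below, with YME1L1. Of all genes, 16.4% to 17.4% lay above and 16.8% to 17.9% below with these scalings. TOMM20 left the knockdown set above 1 with each scaling and PHB2 with total reads. Between the controls, 16 genes differed at 1.5-fold, 1 at 3-fold, TOMM6, and 5 in reads in place of FPKM, without SPG7. Shares of all genes under these control settings were not computed. In FPKM, 5 single ratios of the overexpression library moved beyond their intervals: HSPA9 0.956, HSPD1 1.05, HSPE1 1.24, OPA1 1.05 and YME1L1 0.939. The calls of size in the overexpression library lost OMA1 under TMM, and OMA1 and TIMM21 in FPKM, which added HSPE1, TIMM10 and TIMM17B. The cause of these changes was not tested, apart from the stricter and looser limits, which act by construction. The largest shift of the median of all genes by a scaling was from 0.01 to -0.02 (log2), with total reads in the knockdown. No paired analysis was possible because each group holds 1 library, so no replicate could be left out either. HSPE1 rests on the fewest reads of the genes with a ratio, and its intervals are the widest in both lines.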

Other observations

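Ratios between partner genes within a library, in FPKM, are given as values. OPA1 over DNM1L, the inner membrane fusion GTPase over the fission GTPase, was 0.820 in the MDA-MB-231 control, 0.796 in the knockdown, 1.33 in the Ca1a control and 1.48 in the overexpression library. MFN2 over MFN1 was 2.13, 2.06, 1.25 and 1.32 in the same order. PHB over PHB2, subunits of one ring, was 1.09, 1.07, 0.496 and 0.559. TIMM9 over TIMM10, subunits of one chaperone ring, was 0.35, 0.359, 0.882 and 0.635. TIMM17A over TIMM17B was 1.06, 1.21, 1.16 and 0.904, so the treated libraries lay on opposite sides of their controls. HSPD1 over HSPE1 was 1.27, 1.43, 4.88 and 4.13, and rests on FPKM alone for HSPE1. These pairs were chosen after the levels were seen and carry no test.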
